A study of Mus musculus with 474 samples.

Results

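Fos, Fosb, Jun, Junb, Atf3, Egr1, Egr2, Nr4a1, Ier2 and Dusp1 are immediate-early genes, chosen here by symbol, and they are 10 of the 20612 genes in a count table from skeletal muscle of Diversity Outbred mice. All 10 passed the filter on low counts that left 18823 genes for testing. Diversity Outbred mice descend from 8 inbred founder strains, so each animal carried its own mixture of founder genomes and no genotype was repeated. The animals, of both sexes, gave 1 library each from the muscle named gastrocnemius in the methods. All of them ate a high-fat, high-sugar diet that began at 4 weeks of age, and muscle was taken at 22 weeks by the methods (other parts of the study's text give other adult ages), so that there was no group on another diet and no unstimulated or stimulated group. Each title holds a number, 17, 18, 19, 21 or 23, which was read as the generation of outbreeding. That reading is an assumption, because the methods name generations 18, 19 and 21 for the population, and 17 and 23 are not among them. Generation 17 had 94 animals (48 females), generation 18 had 93 (45 females), generation 19 had 99 (49 females), generation 21 had 93 (46 females) and generation 23 had 95 (47 females). The question addressed was how the mRNA of the 10 genes was distributed over generations, sexes and animals, and how the genes varied together among animals of 1 generation.

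Immediate-early genes are transcribed within minutes of a stimulus, without a need for newly made protein, and their mRNA is short-lived. Growth factor and stress kinases of the MAP kinase family and cAMP signalling reach them through serum response factor with its partner factors and through CREB, which bind short sequences just upstream of the start site. Many of the products are transcription factors that act on a later set of genes, while others dampen the signal. In skeletal muscle they are known to respond to contraction, stretch, injury and handling of the tissue.

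The promoters below are shown because these genes moved together, and matches to known elements of such genes were looked for in them. Promoter windows of RefSeq on GRCm38.p6, reaching from 250 bases before to 50 bases after a start site, were at hand for 8 of the 10 genes, all but Ier2 and Egr1. The cAMP response element half-site TGACG, read on both strands and also counted inside the full element, was in windows of 7 of these 8 genes, all but Jun, beside 20.8% of all 32851 windows of the same length. The full element TGACGTCA was in the window of Dusp1 alone, beside 1.79% of all windows. The CArG box, the site of serum response factor, was in windows of Egr2 alone, beside 1.63% of all windows. The EGR site GCGNGGGCG was in the windows of Fosb and Nr4a1, beside 5.55% of all windows. The letters of the TATA box, TATAAA, read on the strand of the gene, were in the window of Fos, upstream of the start site, and in that of Junb at the start site itself, beside 8.32%. The AP-1 site TGANTCA was in none of the 8, beside 7.81%. The shares are per window, and a gene with several windows, such as Egr2, had more than 1 chance of a match. Sites outside the windows were not looked for, so a gene without a match may hold one further away. These are matches of letters and not measured binding. The 200 bases just upstream of the start site follow, 5′ to 3′ on the strand of the gene, with matches in capitals.
Fos, chr12:85473690-85473889, plus strand, 2 half-sites and a TATA box: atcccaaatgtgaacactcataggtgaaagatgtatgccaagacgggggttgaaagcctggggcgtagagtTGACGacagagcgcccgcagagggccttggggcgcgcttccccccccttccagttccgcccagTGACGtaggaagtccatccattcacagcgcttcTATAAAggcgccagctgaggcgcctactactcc
Fosb, chr7:19310046-19310245, minus strand, a half-site and an EGR site: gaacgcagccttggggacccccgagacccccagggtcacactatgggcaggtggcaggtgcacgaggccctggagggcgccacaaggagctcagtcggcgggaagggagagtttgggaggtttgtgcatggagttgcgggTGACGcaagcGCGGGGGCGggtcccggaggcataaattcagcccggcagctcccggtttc
Egr2, chr10:67537669-67537868, plus strand, a CArG box between half-sites: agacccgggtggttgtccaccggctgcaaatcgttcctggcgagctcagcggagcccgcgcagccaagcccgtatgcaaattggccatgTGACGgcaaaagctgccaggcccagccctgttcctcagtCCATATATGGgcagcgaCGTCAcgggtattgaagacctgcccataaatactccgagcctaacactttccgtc
Nr4a1, chr15:101266646-101266845, plus strand, half-sites on either side of an EGR site: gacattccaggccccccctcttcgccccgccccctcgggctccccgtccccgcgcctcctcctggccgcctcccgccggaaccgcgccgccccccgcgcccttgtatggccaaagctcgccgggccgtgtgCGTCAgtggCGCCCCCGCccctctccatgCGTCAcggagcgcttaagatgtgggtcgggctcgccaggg
Dusp1, chr17:26508473-26508672, minus strand, a half-site and the full element: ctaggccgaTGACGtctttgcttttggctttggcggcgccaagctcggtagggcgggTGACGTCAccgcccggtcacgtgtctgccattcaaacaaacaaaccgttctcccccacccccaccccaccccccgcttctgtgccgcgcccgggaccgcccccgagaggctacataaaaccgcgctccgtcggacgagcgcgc
In Fos the TATA box began 33 bases before the start site, with the half-sites upstream of it. In the Egr2 window shown, 1 of several annotated starts, the CArG box began 72 bases before the start site.

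Among the 10 genes, the levels per kilobase of exon spanned a wide range. In CPM per kilobase, where CPM is counts per 1000000 counts after scaling of the libraries, the median over all animals was 48.99 for Nr4a1, 30.7 for Jun, 26.6 for Dusp1, 13.2 for Atf3 and 9.32 for Fos. The other 5 were lower, at 3.54 for Junb, 3.07 for Ier2, 3.05 for Egr1, 0.366 for Fosb and 0.337 for Egr2. No library was at 0 for any of the genes, and the lowest count of Fosb in a library was 6. The 10 genes also varied more between animals of the same sex and generation than most genes did. The standard deviation of the deposited variance-stabilised score, a log-like scale that compresses the differences of genes with few counts, was 1.06 for Fosb, 1.05 for Fos and 0.956 for Egr1, beside a median of 0.204 over all genes tested. Even Egr2, the least variable of them on this scale, had a larger standard deviation than 87.8% of the genes tested.

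The libraries held 35.9 M to 165.7 M counts (M, 1000000), with a median of 79.3 M, and the generation medians ran from 76.7 M to 81.4 M. Mitochondrial transcripts took 7.01 to 20.1% of counts, with generation medians of 9.83 to 10.6%. In 5 libraries the sex-linked RNA went against the sex on the label, and in 4 libraries, 2 of which were among those 5, the columns stood in exchanged places. These 7 libraries were 1 of generation 17, 2 of generation 18, 3 of generation 19 and 1 of generation 21. They were kept, and the tests between generations and between sexes and the median correlations were also taken without them.

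Between generations, 9 of the 10 genes differed, all but Atf3, beside 7.56% of all genes tested (edgeR's quasi-likelihood F-test with sex as covariate, Benjamini-Hochberg adjusted p under 0.05). All 9 had their lowest fitted level in generation 17 and their highest in generation 19. Fosb, Fos, Egr1, Ier2, Junb and Dusp1 had, by p, the ranks 1, 2, 4, 5, 6 and 9 among all genes tested. After sex was taken out, generation accounted for 40.6% of the variance of the Fosb score, 40.3% of that of Fos, 34.3% of that of Egr1, 29.9% of that of Ier2, 28.6% of that of Junb and 28.2% of that of Dusp1. The shares were 13.8% for Nr4a1, 13.8% for Egr2, 10.6% for Jun and 3.50% for Atf3, and the median over all genes tested was 1.88%. In tissue of many cell types, a change in RNA per cell and a change in the number of cells of a type cannot be told apart. Each generation also held its own run of 100 animal numbers, so generation cannot be told apart from anything else that differed between these runs, and the day and hour of harvest are not given in the sources used here.

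**Figure D1:**
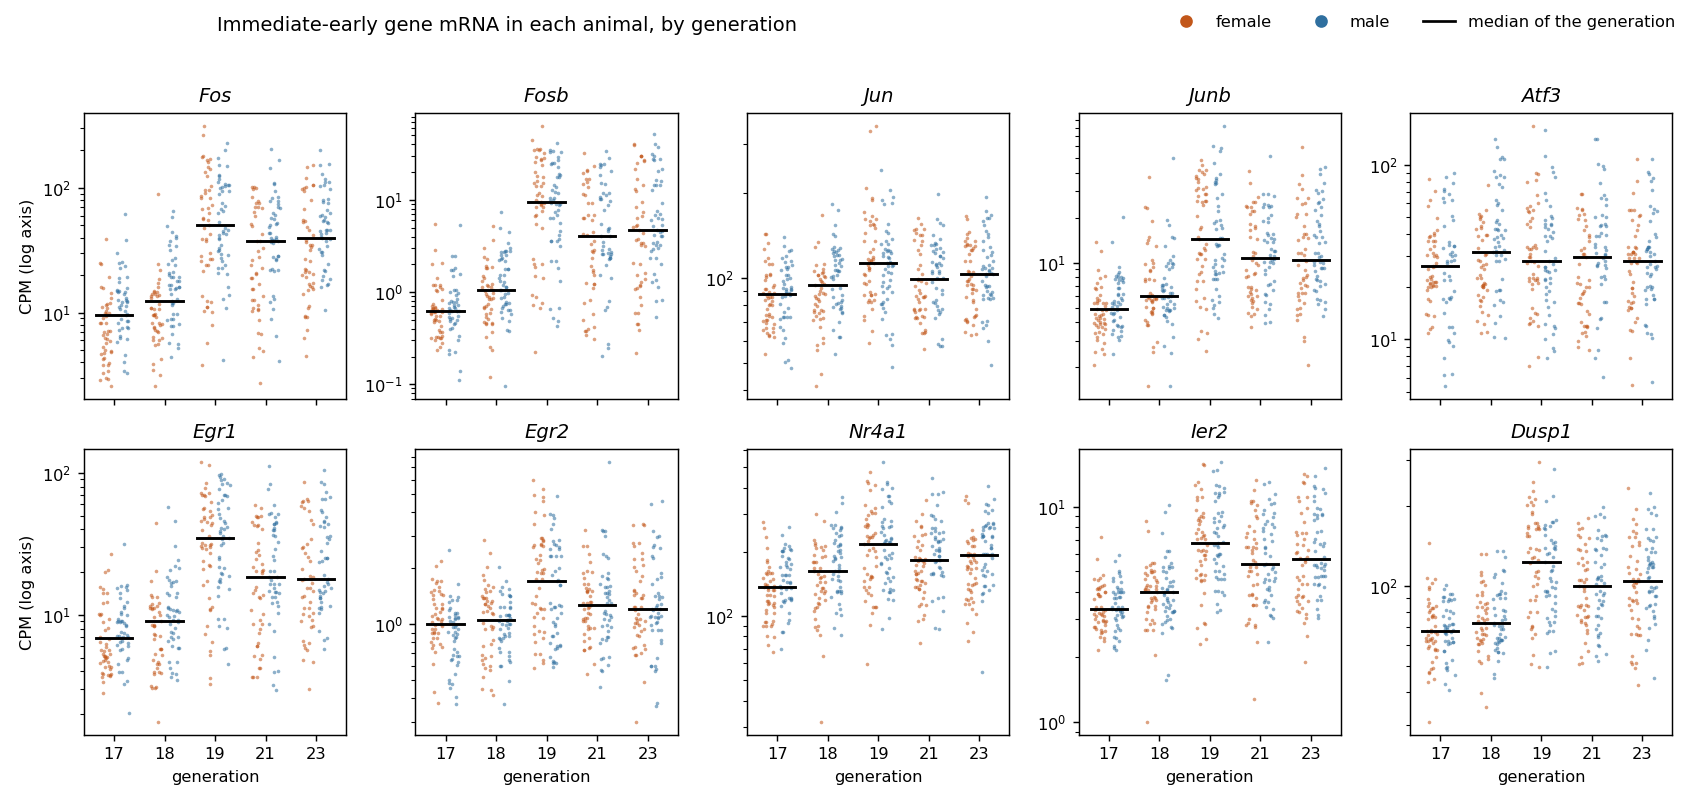
Level of each of the 10 genes in CPM (log axis, a separate range for each gene) in each animal, by generation. Each point is an animal, female or male by colour, and the black line is the median of the generation. In all genes but Atf3 the median line of generation 17 is the lowest and that of generation 19 the highest, with overlapping points, and Atf3 has medians between 26.2 and 31.6 CPM throughout.

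The products of the Fos and Jun genes pair to form the transcription factor AP-1, and Fosb had the widest range among all 10 genes. Fosb (GRCm38, chr7:19302696-19310051, minus strand) had a median of 0.628 CPM in generation 17, with a lowest animal of 0.112 and a highest of 5.46. Its median in generation 18 was 1.05 CPM, from 0.0960 to 7.39, and in generation 19 it was 9.43 CPM, from 0.224 to 62.8. Generations 21 and 23 had medians of 4.10 CPM, from 0.205 to 33.7, and 4.67 CPM, from 0.220 to 52.2. The groups overlapped at their lower ends, whereas 70 of the 99 animals of generation 19, or 70.7%, lay above the highest animal of generation 17, as did 39 of 93 in generation 21 and 41 of 95 in generation 23 but only 1 of 93 in generation 18. The median was 15.02-fold higher in generation 19 than in 17. The fitted difference on the log2 scale was 3.99 ± 0.24 (SE; adjusted p = 8.37e-46, edgeR).

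Fos itself (chr12:85473890-85477273, plus strand) followed the same order at a higher level. Its median was 9.50 CPM in generation 17, from 2.60 to 62.1, and 12.5 CPM in generation 18, from 2.59 to 89.3. In generation 19 it was 50.2 CPM, from 3.81 to 312.1, in generation 21 37.3 CPM, from 2.75 to 204.3, and in generation 23 39.6 CPM, from 4.50 to 199.9. Animals above the highest of generation 17 made up 45.5% of generation 19, 27.96% of generation 21, 28.4% of generation 23 and 2.15% of generation 18, so that the upper part of the 3 later groups stood clear of the earliest. Generation 19 minus 17 was 2.69 ± 0.17 on the log2 scale (adjusted p = 9.74e-41, edgeR).

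Junb and Jun encode partners of the Fos proteins, and they differed from each other in how far they moved. Junb (chr8:84974484-84978718, minus strand) had medians of 4.86, 5.93, 14.3, 10.7 and 10.3 CPM in generations 17, 18, 19, 21 and 23. Its lowest animals lay between 1.495 and 3.69 CPM in all generations, and its highest at 20.1 CPM in generation 17 and 81.8 CPM in generation 19. Generation 19 minus 17 was 1.87 ± 0.14 for Junb on the log2 scale (adjusted p = 4.61e-32, edgeR). Jun (chr4:95049034-95052222, minus strand) had the small difference of 0.44 ± 0.06 (adjusted p = 1.00e-09, edgeR), from a median of 88.1 CPM, range 47.9 to 143.9, to 113.6 CPM, range 48.3 to 346.6. Of generation 19, 24 of 99 animals lay above the highest Jun of generation 17, and the same number lay below the median of generation 17. Jun overlaps Junos, and Junb overlaps Prdx2, both on the opposite strand and both in the table. Whether the counting used strand is not given in the sources used here, so reads of such pairs could not be told apart.

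Atf3 (chr1:191170296-191218039, minus strand), a stress-induced partner of the Jun proteins, was the exception. Its medians were 26.2, 31.6, 28.01, 29.5 and 28.3 CPM in the order of generations, and its lowest and highest animals were 5.42 and 89.3 CPM in generation 17 and 7.07 and 165.7 CPM in generation 19. The groups overlapped over nearly their whole range, with 6 of 99 animals of generation 19 above the highest of generation 17. The test between generations gave an adjusted p of 0.450 (edgeR), and generation 19 minus 17 was 0.27 ± 0.13 on the log2 scale, with a 95% interval of 0.01 to 0.53. The 90th percentile of Atf3 stood 5.46-fold above the 10th in generation 17, near the 5.68-fold of Fos, and 5.84-fold above it in generation 19, where that of Fos was 12.5-fold.

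Egr1 and Egr2 encode zinc finger transcription factors, and Egr1 moved further. Egr1 (chr18:34859823-34864984, plus strand) had a median of 6.91 CPM in generation 17, from 2.03 to 31.7, and of 9.03 CPM in generation 18, from 1.77 to 57.2. Its median was 34.9 CPM in generation 19, with a lowest animal of 3.28, 18.5 CPM in generation 21, from 2.94 to 111.1, and 17.9 CPM in generation 23, from 3.01 to 105.2. Over the highest animal of generation 17 lay 53 of 99 animals of generation 19, 30 of 93 of generation 21 and 30 of 95 of generation 23. The log2 difference of generation 19 from 17 was 2.28 ± 0.16 for Egr1 (adjusted p = 1.27e-35) and 0.89 ± 0.10 for Egr2 (adjusted p = 1.23e-13, both edgeR). Egr2 (chr10:67535475-67542188, plus strand) is also known as a factor of Schwann cells, and its medians were low, at 1.00, 1.05, 1.72, 1.27 and 1.204 CPM. In generation 19 its range was 0.586 to 5.98 CPM, and 27 of 99 animals stayed below the median of generation 17.

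The other 3 genes have roles of their own. Nr4a1 (chr15:101254269-101274795, plus strand), an orphan nuclear receptor, had medians of 136.9, 161.8, 218.2, 183.6 and 192.8 CPM, with a range of 67.98 to 276.4 CPM in generation 17 and 59.5 to 528.1 CPM in generation 19. Ier2 (chr8:84661331-84662854, minus strand), a nuclear protein of the early response, had medians of 3.33, 3.998, 6.79, 5.43 and 5.69 CPM, with ranges of 2.15 to 7.20 CPM in generation 17 and 2.30 to 16.1 CPM in generation 19. Dusp1 (chr17:26505590-26562128, minus strand), a phosphatase that turns off MAP kinases and so dampens the signal, had medians of 67.7, 72.6, 123.7, 99.8 and 104.2 CPM, with ranges of 30.8 to 146.1 and 49.6 to 293.8 CPM in the same 2 generations. All 3 rose, by a log2 difference of generation 19 from 17 of 1.06 ± 0.08 for Ier2 (adjusted p = 6.71e-29), 0.86 ± 0.07 for Dusp1 (adjusted p = 2.18e-26) and 0.65 ± 0.08 for Nr4a1 (adjusted p = 3.80e-14, all edgeR). The deposited span of Dusp1 overlaps Gm8225 and Ergic1, both on the opposite strand and in the table.

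**Figure D2:**
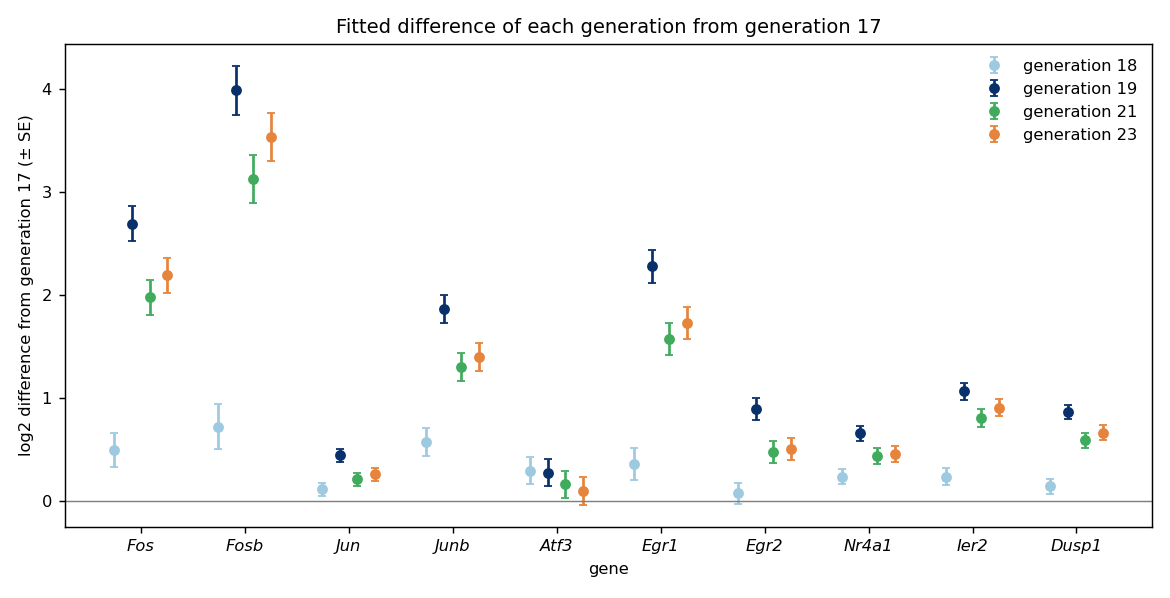
Fitted log2 difference of generations 18, 19, 21 and 23 from generation 17 for each gene, with bars of 1 standard error (edgeR, sex as covariate). In all genes but Atf3 the point of generation 19 is the highest and that of generation 18 the nearest to 0, from 0.07 for Egr2 to 0.72 for Fosb.

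The generations were then compared in pairs. Generation 18 minus 17 was called in 1 of the 10 genes, Junb (0.57 ± 0.14 on the log2 scale; adjusted p = 0.00568, edgeR), beside 0.754% of all genes called as higher, and was not called with limma. With edgeR 7 of the 10 had an unadjusted p under 0.05, all higher in generation 18, and the 95% intervals were 0.29 to 1.15 for Fosb and 0.17 to 0.81 for Fos. Compared with generation 17, 9 genes were higher in each of generations 19, 21 and 23, all but Atf3, beside 2.85%, 3.11% and 4.45% of all genes called as higher. Compared with generation 18, 9 were higher in generation 19 (0.499% of all genes called as higher), 7 in generation 21 (0.308%) and 7 in generation 23 (0.924%), where Jun, Nr4a1 and Atf3 were not called. In the last 2 of these comparisons limma called 6 genes. All these comparisons with one generation share its animals.

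Generations 19, 21 and 23 were also compared with each other. Fos, Fosb, Junb, Egr1 and Egr2 were lower in generation 21 than in 19, beside 0.106% of all genes called as lower, by 0.72 ± 0.16 for Fos, 0.86 ± 0.21 for Fosb, 0.57 ± 0.13 for Junb, 0.70 ± 0.15 for Egr1 and 0.42 ± 0.10 for Egr2 on the log2 scale. With limma on the deposited score 2 of these 5 were called, beside 5 of all 18823 genes. Among males alone none was called, beside 3 of 17861 genes (edgeR). Generation 23 minus 19 was called in none of the 10 genes with edgeR or with limma, beside 0.0956% of all genes with edgeR and 4 of 18823 with limma. Once total count and mitochondrial share were covariates it was called in Egr1 and Egr2 (adjusted p = 0.0462 and 0.0460, edgeR), beside 42 of 18823 genes. With edgeR 8 of the genes had an unadjusted p under 0.05 for generation 23 minus 19. Its 95% intervals lay below 0 in 8 genes and were -0.84 to -0.26 for Egr1 and -0.86 to -0.05 for Fosb. Generation 23 minus 21 was called in none with either tool, beside 0.266% of all genes with edgeR and 0 of 18823 with limma. With edgeR no unadjusted p was under 0.05, and the widest 95% interval was -0.002 to 0.82 for Fosb.

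The spread between animals was wider in the later generations too. Absolute deviations of the score from the median of each sex and generation differed between generations in 7 of the 10 genes, all but Jun, Nr4a1 and Atf3, beside 0.138% of all genes, or 26 genes (limma, adjusted p under 0.05; a test chosen after the data were seen). The mean absolute deviation of Fosb was 0.299 in generation 17 and 0.415 in generation 18, against 1.06, 1.06 and 1.10 in generations 19, 21 and 23 (adjusted p = 1.17e-21, limma). That of Junb was 0.331 in generation 17 and 0.838 in generation 19 (adjusted p = 8.99e-09, limma), and that of Ier2 0.193 and 0.408 (adjusted p = 6.08e-09, limma). On log2 CPM, where low counts are less compressed, the same number of the genes, 7, was called, but the widening of Fosb was smaller, with mean absolute deviations of 0.694 and 0.844 in generations 17 and 18 against 1.391, 1.553 and 1.504 in 19, 21 and 23. In CPM the 90th percentile of Fosb stood 5.45-fold above the 10th in generation 17 and 36.1-fold above it in generation 19. The later generations thus held animals as low as those of generation 17 beside others far above it. Below the Fosb median of generation 17 lay 4 of 99 animals of generation 19, 11 of 93 of generation 21 and 7 of 95 of generation 23.

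**Figure D3:**
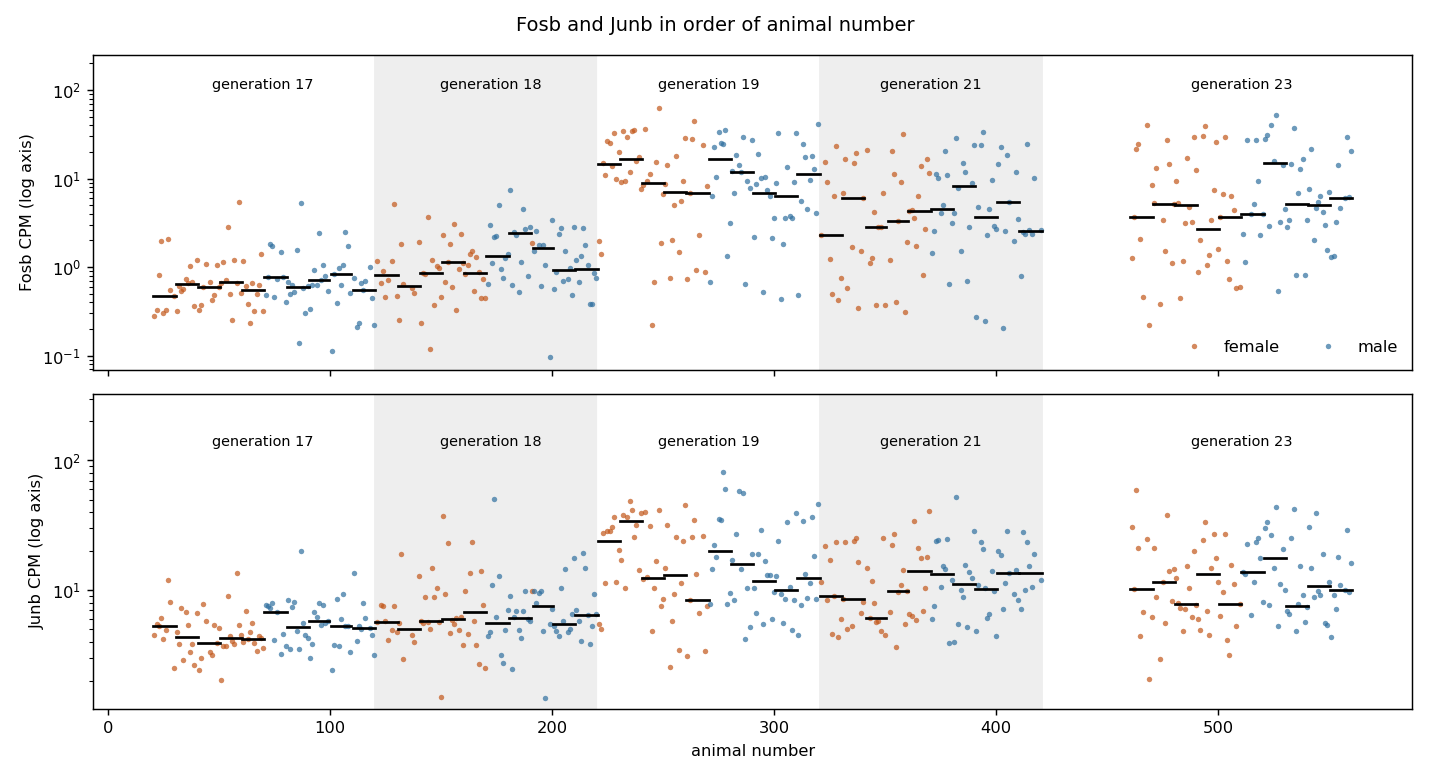
Level of Fosb (above) and Junb (below) in CPM on a log axis in each animal, by animal number. Points are animals, coloured by sex, shading separates the generations, and black lines are medians of stretches of 10 consecutive numbers. The step between the last animals of generation 18 and the first of generation 19 is visible in both genes, and within generation 19 the medians of stretches run from 6.37 to 16.8 CPM for Fosb and from 8.36 to 34.5 CPM for Junb.

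Animals with neighbouring numbers were compared within each sex and generation, since such animals may have been handled together, which the labels do not say. None of the 10 genes was called between stretches of 10 consecutive numbers, with adjusted p from 0.603 for Egr2 upwards (edgeR), beside 5.76% of all genes, and none had an unadjusted p under 0.05. Stretches of 5 and of 25 numbers gave 0 called as well, beside 1218 and 747 of all 18823 genes (edgeR). Limma also called 0 of the 10, but it called only 11 of 18823 genes between stretches of 10. The stretches took 6.43 to 12.1% of the variance within sex and generation, against a median of 9.46% over all genes.

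Library numbers, the only technical label, were divided into 5 blocks of 91 to 96 libraries. Each block held animals of every generation, between 10 and 26 of each. Jun, Junb, Ier2, Nr4a1 and Dusp1 differed between blocks with sex and generation as covariates, that is 5 of the 10 genes, beside 47.4% of all genes (edgeR). The difference between generations was found inside the blocks as well. With each block taken alone, 6, 9, 9, 7 and 6 of the genes were called between generations, beside 0.415%, 0.463%, 0.967%, 0.319% and 0.294% of all genes, and the log2 difference of generation 19 from 17 ran from 3.58 to 4.74 for Fosb, from 2.01 to 3.21 for Fos and from 2.03 to 2.79 for Egr1. Egr2 was not called in blocks 1, 4 and 5, Jun in blocks 1, 4 and 5, and Nr4a1 in blocks 1 and 5.

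Among animals of the same generation the genes varied together. With the score centred by sex, all relations, of 45 pairs of genes in each of 5 generations, had a positive Pearson r, from 0.00250 to 0.961, and the median was 0.579. Of these, 210 passed a 2-sided permutation test with 100000 resamples (adjusted over all pairs and generations, the smallest possible p being 1e-05). All libraries of a generation enter each relation, so that the relations of a generation share their animals and their depth. When the 2 animals farthest from the median of the first gene were left out, r moved by at most 0.130, and that of Atf3 and Ier2 in generation 17 turned from 0.0509 to -0.0334.

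The relations were tighter in the later generations. The median r over the 45 pairs was 0.346 in generation 17 (lowest 0.0509, highest 0.724; median rho 0.342) and 0.420 in generation 18 (0.00250 to 0.751; median rho 0.399). It was 0.751 in generation 19 (0.405 to 0.938; median rho 0.754), 0.582 in generation 21 (0.276 to 0.937; median rho 0.584) and 0.668 in generation 23 (0.381 to 0.961; median rho 0.655). In generations 19, 21 and 23 all 45 pairs passed, against 36 in generation 17 and 39 in generation 18. No test of the difference between these medians was made. After the log2 total count and the mitochondrial share were taken out the medians were 0.341, 0.436, 0.757, 0.560 and 0.638 in the order of generations.

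**Figure D4:**
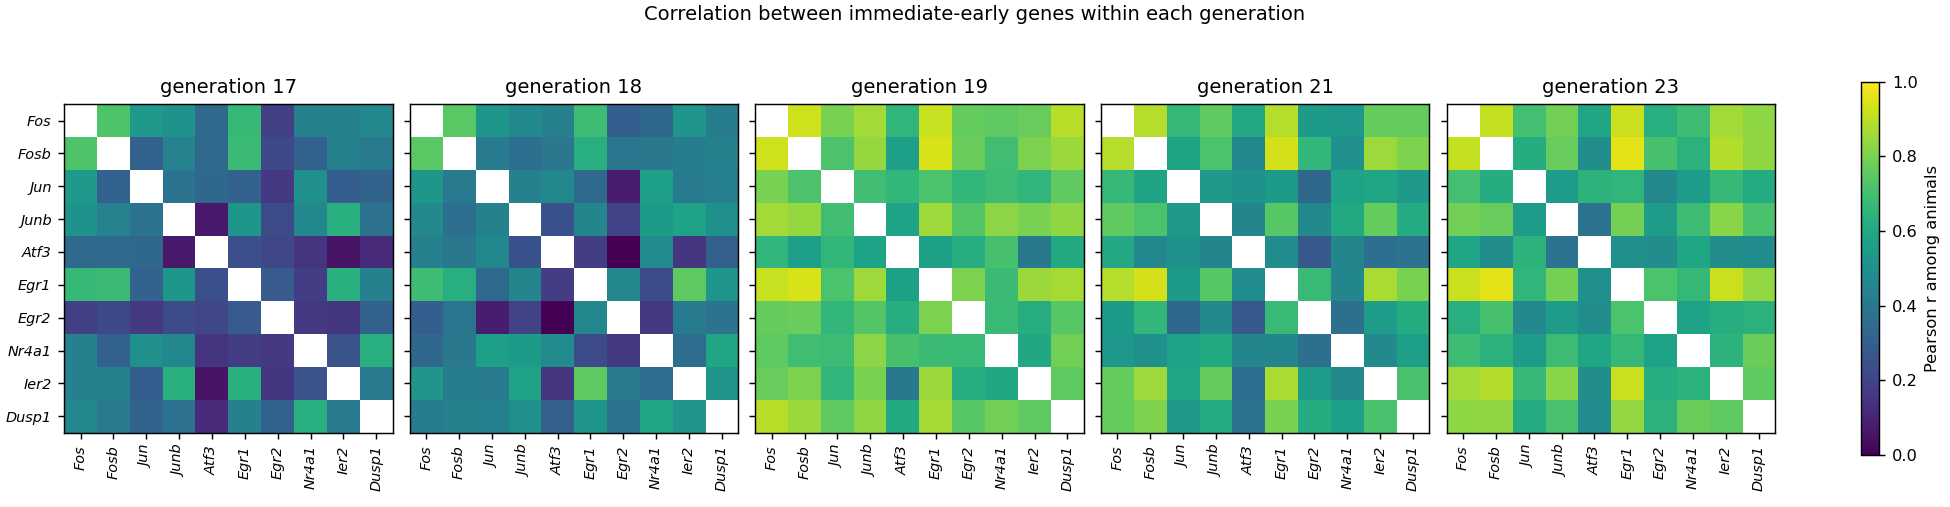
Pearson r between each pair of the 10 genes among animals of 1 generation, from the score centred by sex, in a panel for each generation, on a colour scale from 0 to 1. The panels of generations 17 and 18 are mostly below 0.5, that of generation 19 is mostly above 0.7, and the rows of Atf3 and Egr2 hold the weakest relations.

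Certain genes formed a core. Fos and Fosb had r from 0.724 to 0.930 over the 5 generations (rho 0.689 to 0.934), with a mean of 0.840. Fosb and Egr1 had r from 0.630 to 0.961, with a mean of 0.830, Fos and Egr1 from 0.671 to 0.921, with a mean of 0.817, and Egr1 and Ier2 from 0.634 to 0.920, with a mean of 0.806. All relations of these 4 pairs passed, each with an adjusted p of 1.43e-05 by the permutation test. Nr4a1 and Dusp1, both abundant in this muscle, had r from 0.564 to 0.786, with a mean of 0.669.

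Atf3 and Egr2 stood at the edge of this group. Atf3 had its weakest relation with Ier2, r from 0.0509 to 0.493 and mean 0.293, and with Egr2, r from 0.00250 to 0.622 and mean 0.320. It was nonetheless related to Jun in every generation, r from 0.337 to 0.663 with a largest adjusted p of 0.00117 (permutation test), and to Fos, r from 0.346 to 0.657 with a largest adjusted p of 0.000893. Although its level did not pass the test between generations, its median r with the other 9 genes was 0.213 in generation 17 and 0.606 in generation 19. Jun and Egr2 were related at r = 0.0776 in the weakest generation and 0.661 in the strongest.

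Many animals were therefore high or low for the genes at large. An animal was compared with the median of its own sex and generation in each gene. In generation 19, 18 of 99 animals lay above the median in all 10 genes and 26 lay at or below it in all 10, and in generation 17 both numbers were 4 of 94. Counting animals with 9 or 10, or with 0 or 1, of the genes above the median, the shares were 25.5%, 30.1%, 65.7%, 54.8% and 48.4% in generations 17, 18, 19, 21 and 23.

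Single animals showed the same in their values. In generation 23 a male, DO526, was the highest animal for 7 of the genes, with 199.9 CPM of Fos, 52.2 of Fosb, 105.2 of Egr1, 15.1 of Ier2 and 406.7 of Nr4a1. A female of the same generation, DO469, was the lowest for 6, with 4.50 CPM of Fos, 0.220 of Fosb and 3.01 of Egr1. Both animals ate the same diet and belong to the same generation. In generation 19 a female, DO260, was the highest for 4 genes, Egr1 among them, with 312.1 CPM of Fos, 165.7 of Atf3 and 293.8 of Dusp1, and another female, DO253, was the lowest for 5, among them Ier2 at 2.30 CPM and Nr4a1 at 59.5 CPM. In generation 18 the female DO150 was the lowest for 6 genes, with 31.8 CPM of Nr4a1 and 41.4 of Jun.

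Likeness to the 10 genes was measured for each gene tested as the mean over generations of its r, within a generation, with the mean standardised score of the 10. Over all genes the median of this measure was -0.007 and the 99th percentile 0.263, and 18 other genes were above 0.5. The most alike was Btg2, an antiproliferative early gene, at 0.789. Its medians were 27.4, 34.4, 66.5, 47.4 and 50.2 CPM, lowest in generation 17 and highest in generation 19 as in 9 of the 10 genes. It was followed by Klf2 at 0.703, Klf4 at 0.676, Apold1 at 0.667, Otud1 at 0.663 and Adamts1 at 0.604, then by Plk3 at 0.590, Csrnp1 at 0.583, Zfp36 at 0.567, Egr3 at 0.562, Gem at 0.562 and Sik1 at 0.560. Most of these are known early-response genes themselves. At the opposite end were Gm20045 at -0.447, A930016O22Rik at -0.426 and 6720427I07Rik at -0.406. These are descriptions over 5 generations, with no test.

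Each of the 10 genes also had a nearest partner among all genes. For Fos it was Fosb, and the reverse, at a mean r of 0.840. Egr1 was nearest to Fosb, Ier2 (0.806), Egr2 (0.590) and Dusp1 (0.691) were nearest to Egr1, and Jun (0.646) was nearest to Fos. Junb, Atf3 and Nr4a1 had their nearest partners outside the 10, Junb with Btg2 at 0.736, Atf3 with Otud1, a deubiquitinase gene, at 0.776 and Nr4a1 with Sik1, a kinase gene induced by cAMP signalling, at 0.722.

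Other immediate-early genes showed how far the pattern reached. Of 39 such genes, 38 were tested, all but Egr4, and 25 were called between generations, beside 7.56% of all genes, of which 23 had their lowest fitted level in generation 17 and 18 their highest in generation 19. Between generations 19 and 17, 23 rose, beside 2.85% of all genes, and none was called as lower. Their median log2 difference was 0.28, beside 0.98 for the 10 genes and -0.004 for all genes tested. The widest ranges were those of Nr4a2, a relative of Nr4a1, at 1.80, Btg2 at 1.54, Socs3, a cytokine signalling inhibitor, at 1.44 and Egr3 at 1.12 on the log2 scale. Klf4 rose by 0.56 ± 0.05 from generation 17 to 19 (adjusted p = 2.21e-21, edgeR) and Ccn1, formerly Cyr61, by 0.36 ± 0.08 (adjusted p = 0.000357, edgeR). Socs3 moved between generations, yet its likeness to the 10 genes was only 0.0403.

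**Figure D5:**
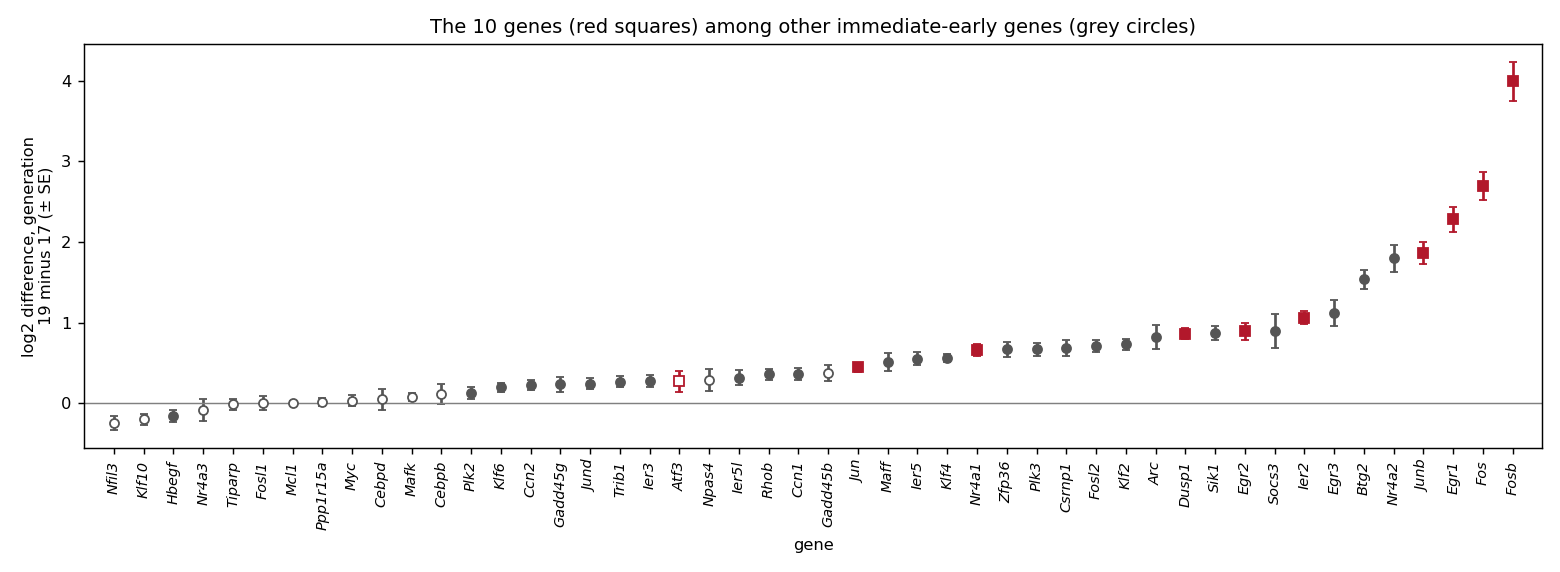
Log2 difference of generation 19 from 17 with 1 standard error for the 10 genes (red squares) and 38 other immediate-early genes (grey circles), in order of size, filled where the gene was called between generations and open where it was not (edgeR). The 10 genes run from 0.27 for Atf3 to 3.99 for Fosb, and among the others Nr4a2 and Btg2 stand highest.

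Among 21 factors and kinases upstream of these genes, the median log2 range over generations was 0.07, beside 0.11 over all genes. Called between generations were 2, beside 7.56% of all genes, Mrtfa and Elk3, with log2 ranges of 0.21 and 0.13, and none was called between generations 19 and 17. Srf, which encodes serum response factor, differed by 0.05 ± 0.03 (adjusted p = 0.366, edgeR). Of 12 feedback inhibitors of MAP kinase signalling other than Dusp1, 2 were called, and both rose from generation 17 to 19, Spry4 by 0.43 ± 0.05 (adjusted p = 5.04e-12) and Spry1 by 0.14 ± 0.04 (adjusted p = 0.00596, both edgeR).

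Other responses that the handling or the hour of sampling can move were followed by lists of their own. Their counts stand beside the 7.56% of all genes called between generations, and a count of 1 or 2 in a list this short is not read as a result about the list. Among 16 circadian clock genes 2 were called, Ciart and Bhlhe40, with log2 ranges of 0.58 and 0.52 and their lowest fitted level in generation 17, while Per1 was not (range 0.21; adjusted p = 0.332, edgeR). Among 10 heat shock genes 6 were called, all lowest in generation 17. Between generations 18 and 17, 5 of the list were called, counted in either direction. In that comparison 0.754% of all genes were called as higher (edgeR). Hspa1b had medians of 15.9, 30.8, 41.2, 43.1 and 35.1 CPM, Hspa1a of 17.3, 30.9, 37.8, 37.9 and 33.6 CPM and Dnajb1 of 9.67, 14.4, 17.3, 18.8 and 16.4 CPM, with medians in generation 18 above those of generation 17. Of the 10 immediate-early genes, Junb was called there, and whether the lists differed in this was not tested. Among 9 glucocorticoid-responsive genes 2 were called, both lower in generation 19 than in 17, Fkbp5 by 0.34 ± 0.09 (adjusted p = 0.0119) and Zbtb16 by 0.32 ± 0.05 (adjusted p = 3.93e-07, both edgeR). Among 8 hypoxia-responsive genes only Adm was called, with a log2 range of 0.32. Whether these responses had a part in the levels of the 10 genes was not tested.

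Markers of the cell types of muscle were set beside the 10 genes. The 6 muscle fibre markers had a summed level of 120500 to 240800 CPM in single libraries, so that the tissue label held in every animal, and none of them was called between generations. None of the smooth muscle and pericyte, satellite cell or Schwann cell markers was called either. Of the others, 2 of 8 endothelial, 4 of 9 macrophage, 1 of 4 fibro-adipogenic, 3 of 5 adipocyte, 4 of 5 erythroid and 5 of 6 neutrophil markers were called between generations, beside 7.56% of all genes (edgeR). With limma these counts were 3, 4, 1, 1, 4 and 4 in the same order, beside 1294 of 18823 genes. No marker of any list had a median of 0 in a generation. The endothelial sum had medians of 238.9 to 245.3 CPM over the generations. The neutrophil sum, which was low, had medians of 0.808, 0.778, 1.19, 0.893 and 1.08 CPM, with single libraries from 0.196 to 42.3 CPM, with the highest median in generation 19. Its members S100a8 and S100a9 had log2 ranges of 2.35 and 2.21. By the fitted level, however, 1 of its 5 called members was highest in generation 19 and 2 were lowest in generation 17.

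Some of these measures were related to the 10 genes among animals after sex and generation were taken out (all animals; 120 relations; permutation test with adjustment over the 120). The neutrophil sum was related to 8 of the 10, most to Egr1 (r = 0.281, rho = 0.321, adjusted p = 9.23e-05 by the permutation test; r = 0.328 without the 2 farthest animals), and within single generations the r of Egr1 ran from 0.0694 to 0.472 and within blocks from 0.182 to 0.342. Of these 8 genes, 5 had an r below 0 in a generation, Fos (-0.061), Fosb (-0.072), Jun (-0.173), Junb (-0.035) and Dusp1 (-0.106). The endothelial sum was related to 8 as well, most to Ier2 (r = 0.244, rho = 0.245). Egr2 was related to the Schwann cell sum (r = 0.335, rho = 0.357; 0.322 without the 2 farthest; 0.247 to 0.503 within generations). The muscle fibre sum was related to 3 genes, most to Nr4a1 (r = 0.287, rho = 0.284; 0.210 to 0.380 within generations). The sums of smooth muscle and pericyte, fibro-adipogenic, macrophage and adipocyte markers were related to 4, 3, 2 and 1 of the genes, with Nr4a1 at r = -0.216, -0.167 and -0.146 to the last 3 sums. The mitochondrial share was related to 5 genes, negatively, most to Ier2 (r = -0.321, rho = -0.241; -0.498 to 0.0979 within blocks). The log2 total count was related to none, with r between 0.0361 and 0.0853. With the total count and the mitochondrial share as covariates 9 genes were called between generations, as before, beside 1955 of all 18823 genes. The part of the cell types in the results was not tested.

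In 9 of the 10 genes male minus female was smaller than the range over generations, and Atf3 was the exception (0.32 against 0.29 on the log2 scale). Males were higher in Fos, Egr1, Atf3 and Nr4a1, which makes 4 of the 10 genes, beside 24.4% of all genes tested that were higher in males (edgeR, with generation as covariate). Fos had a median of 15.4 CPM in females and 28.8 CPM in males, with ranges of 2.59 to 312.1 and 3.26 to 229.1, and male minus female was 0.45 ± 0.10 on the log2 scale (adjusted p = 5.66e-05). Egr1 had medians of 11.3 and 15.4 CPM and a difference of 0.33 ± 0.10 (adjusted p = 0.00169), Atf3 26.3 and 30.9 CPM and 0.32 ± 0.08 (adjusted p = 0.000535), and Nr4a1 157.5 and 190.4 CPM and 0.24 ± 0.05 (adjusted p = 2.65e-06, all edgeR). The other 6 were not called, with 95% intervals of -0.07 to 0.10 for Dusp1 and -0.08 to 0.44 for Fosb on the log2 scale. The sexes overlapped in all genes.

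The difference between the sexes varied with the generation in its values but not beyond the test. None of the 10 genes was called for the interaction of sex and generation, beside 0.531% of all genes, with an unadjusted p under 0.05 in 2, Jun and Atf3 (edgeR). Limma called 0 of all 18823 genes for the interaction, so it says nothing about these 10 in particular. In generation 18 taken alone 6 of the genes were higher in males, beside 11.4% of all genes, with Fos at 0.77 ± 0.20 (adjusted p = 0.00194) and Atf3 at 0.73 ± 0.17 (adjusted p = 0.000672, both edgeR). In generation 19 none was called, beside 23.3% of all genes, and male minus female was -0.10 ± 0.25 for Fos, with medians of 55.6 CPM in females and 46.99 CPM in males. In both sexes taken apart the generations differed, in 9 genes among females (2.85% of all genes) and in 8 among males (2.81%), where Jun was not called, and generation 19 minus 17 was 4.16 in females and 3.80 in males for Fosb.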

How the data were processed

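RNA of 474 muscle libraries was analysed. Per the methods, polyadenylated RNA was sequenced as read pairs, whose mates the authors joined and aligned as single reads to a transcriptome of the founder strains. The authors deposited expected counts per gene (EMASE run by GBRS), which count read ends, after a filter on genes with few reads, and a score per gene, the variance-stabilising transform (VST) of DESeq2, a log-like scale that compresses low counts. The methods describe removal of batch effects, yet 7559 of 18823 genes differed between library blocks in the deposited score (limma). Versions of the aligner and counter and any use of strand are not given in the sources used here. Gene starts equalled GENCODE M21 in 99.5% of genes, so the build was taken as GRCm38, which the submitters' processing notes also name. Wave, a further covariate of the methods, is not in the labels and was not fitted.

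Expected counts were rounded and tested in R 4.3.3 with edgeR 4.0.16 (TMM; genes kept by filterByExpr, count minimum 10, grouped by sex and generation; quasi-likelihood F-test with trended dispersion; Benjamini-Hochberg adjustment over all 18823 genes, threshold 0.05), with limma 3.58.1 and DESeq2 1.42.0 as alternatives. For stretches of animal numbers the dispersion was taken from the sex-by-generation design. The test of spread and its alternative, and the pairs of generations without the doubted libraries, were chosen after the data were seen. CPM used TMM-scaled totals. The depth of 35.9 M to 165.7 M counts (M, 1000000) per library left 6 counts as the lowest value of any of the 10 genes. Correlations used the VST in Python 3.11.15 with numpy 2.4.6 and pandas 2.3.3. Figures were drawn with matplotlib 3.10.9. The tests were tried on simulated data. All columns were matched by animal name. Intervals are 95% (1.96 standard errors).

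The 10 genes and the lists were chosen with earlier results of these data known. All 10 are named in every comparison, of each list at most 4 called genes with the widest log2 range, plus Per1, Klf4, Btg2, Cyr61 and Srf, and by likeness the 12 most and 3 least alike genes. Cyr61, Ctgf, Mkl1 and Mkl2 stand in the table as Ccn1, Ccn2, Mrtfa and Mrtfb. Each animal is a separate mouse, so p-values measure the spread between animals.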

Additional observations from a re-analysis of the deposited data

How the results depend on the processing

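Between generations 9 genes were called under DESeq2-style size factors, scaling to the total count alone, no filter on low counts, a minimum count of 50, DESeq2, limma on the VST, library block, or total count and mitochondrial share, as covariates, a robust fit, no sex term and without the doubted libraries, and the direction was kept throughout. Single blocks gave 6 to 9 called genes and males alone 8, where Jun had an adjusted p of 0.0641 (edgeR). Over all settings on the log2 scale the range ran from 3.58 to 4.74 for Fosb, 2.01 to 3.21 for Fos, 2.11 to 2.79 for Egr1 and 0.145 to 0.737 for Jun (on the VST, which compresses low counts, 2.25 units for Fosb and 1.81 for Egr1), and the adjusted p of Atf3 from 0.176 to 0.984. Generation 19 minus 17 was called in 9 genes in fits of all animals and of each sex, and in 5 to 9 in single blocks. Generation 21 minus 19 was called in 2 genes with limma, beside 5 of all genes, and in 4 to 7 in the other fits of all animals, beside 25 to 50. It was called in 5 among females, beside 82 of all genes, and in 0 among males, beside 3. In every block it was called in 0, beside 0 to 23 of all genes, so that few genes of any kind were called there. Junb was called in generation 18 minus 17 in fits of all animals except limma (0 genes), and in no sex or block alone, while block 3 called Atf3. Generation 19 minus 18 was called in 9 genes in fits of all animals and of females, 7 among males and 2 to 7 in blocks. Generations 21 and 23 minus 18 were called in 6 to 7 genes in fits of all animals, 5 among females, 6 among males and 0 to 5 in blocks, and both minus 17 in 9, 7, 8 and 1 to 7. The median correlation was 0.561 to 0.580 under all alternatives.

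Calls between the sexes were fewer in most subsets of the animals. They were 2 in block 1 and 0 in blocks 2, 3, 4 and 5, beside 3698 of 19025, 4239 of 19653, 4578 of 19343, 5381 of 18809 and 4377 of 19063 genes. They were 1 in generation 17, 0 in generation 19, 2 in generation 21 and 1 in generation 23. The shares over all genes there were 4103 of 16641, 3859 of 16575, 4587 of 16613 and 4614 of 16780. Fits of all animals gave 4 to 6, and the edgeR fit with generation as covariate called 10362 of 18823 genes. Jun and Ier2 passed once total count and mitochondrial share were covariates (0.11 and 0.17 on the log2 scale, edgeR). The direction, male minus female on the log2 scale, turned in generation 19 for Fos (-0.10), Fosb (-0.26), Jun (-0.14), Junb (-0.045), Atf3 (-0.017) and Dusp1 (-0.19), in generation 18 for Junb (-0.043), in generation 17 for Dusp1 (-0.0092), in generations 21 and 23 for Egr2 (0.17 and 0.029), in block 1 for Egr2 (0.052), in block 3 for Jun (-0.026), Junb (-0.10) and Dusp1 (-0.0086), in block 5 for Fosb (-0.010), Junb (-0.046) and Dusp1 (-0.092), and for Dusp1 with the total count alone (-0.014). Of these genes, Fos and Atf3 were called over all animals, and the cause was not tested. No paired analysis was possible because each animal name occurs once and the groups share no numbers.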
